A study of Mus musculus with 3 samples.

Results

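The sites described here were intervals of the deposited list of NFI in vivo sites that held a match to the NFI consensus palindrome. The palindrome is made of the half-site TTGGCA, 3 free positions and TGCCAA, the same half-site read on the opposite strand. An interval was taken when a match with at most 2 mismatches at the 12 fixed positions was centred within 150 bp of its own centre in mm9. This was met by 1240 of the 39807 deposited sites, or 3.12% (2.95 to 3.29). Of these, 24 held a match without mismatch, 190 had 1 mismatch in their best match and 1026 had 2. A single match lay in the range at 1218 of them and 2 matches at the other 22, and no best match was shared between sites.

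NFI proteins were immunoprecipitated from primary mouse embryonic fibroblasts (MEF), taken at 14.5 days of gestation from C57BL/6 animals and grown in culture, and the recovered DNA was sequenced (ChIP-Seq). The same precipitation was made from NFI-C knock-out MEF, in which the Nfic gene carries an insertion, and non-precipitated DNA of wild-type MEF served as the input. The H300 antibody was raised against the NFI group, so that NFI-A, NFI-B and NFI-X could also be recovered in the knock-out cells, and all 3 libraries went through 18 cycles of amplification and a gel selection of 50 to 400 bp. For the knock-out library, title and description disagree on the genotype (knock-out against wild-type), and the grouping rests on the title. The libraries hold no expression values with which the labelled cell type could be checked.

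Each condition had 1 library without a replicate, and groups were therefore described but not tested against each other. Counting no position on a strand more than 1 time, the wild-type ChIP held 3350071 tags, the knock-out ChIP 3132004 and the input 4100449. Uniquely mapped reads made up 68.1%, 66.3% and 45.1% of all reads in the same order, and each tag stood for 2.92, 3.45 and 1.32 of them on average. The ChIP libraries thus held more repeated reads than the input. The genome average was 0.393, 0.367 and 0.481 tags per 300 bp in the same order. Ranges in brackets are exact 95% intervals (Clopper-Pearson for shares, exact binomial for ratios of 2 counts, Poisson for single counts) of the counting error alone. The deposited list had been made from wild-type tags, which raises the wild-type values at all sites, while knock-out and input tags had no part in making it. Ratios between libraries were scaled by library size.

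NFI is a family of transcription factors (NFI-A, NFI-B, NFI-C and NFI-X) that share a DNA-binding domain and bind as dimers. Each subunit contacts a half-site, so a palindrome with a damaged half-site can still hold a dimer through the other one, with lower affinity. In connective tissue cells, NFI sites are known from promoters and enhancers of matrix and growth factor genes, and the family also takes part in the replication of adenovirus DNA.

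The sites without mismatch show the intact element in its genomic surroundings. For 10 of the 12 with the most knock-out tags, the match with 10 bases on each side is given on the plus strand of mm9, under the nearest protein-coding gene, with the 12 fixed positions in capitals.
Kcnip4, chr5:49920732-49920766: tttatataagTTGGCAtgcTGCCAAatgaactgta
Crybg3, chr16:59548368-59548402: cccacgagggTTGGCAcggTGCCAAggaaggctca
Nfia, chr4:97443187-97443221: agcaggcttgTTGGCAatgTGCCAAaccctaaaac
6430527G18Rik, chr12:88235430-88235464: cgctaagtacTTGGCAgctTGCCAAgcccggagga
Limd1, chr9:123424097-123424131: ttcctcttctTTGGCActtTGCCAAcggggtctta
Gpr125, chr5:50443883-50443917: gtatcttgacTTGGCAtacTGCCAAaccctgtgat
1810024B03Rik, chr2:127009080-127009114: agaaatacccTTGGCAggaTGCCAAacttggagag
Hpgd, chr8:58871587-58871621: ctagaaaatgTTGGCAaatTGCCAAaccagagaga
Slc35f1, chr10:52423966-52424000: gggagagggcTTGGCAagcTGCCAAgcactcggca
Nell2, chr15:95094908-95094942: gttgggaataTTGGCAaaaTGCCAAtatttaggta
The 24 sites of this kind lay on 13 chromosomes, and 14 of them were in introns, or 58.3% (36.6 to 77.9). The share of all deposited sites, 44.9%, lay inside this interval.

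The sites with mismatches show which bases were replaced where knock-out tags were most numerous. The 6 sites of each kind with the most knock-out tags, sites of 5 or more input tags left aside, are given in the same way, with the matching fixed positions in capitals and the replaced ones in lower case. Substitutions name the palindrome base, the position and the genomic base. Positions run from 1 at the outer end of a half-site to 6 beside the spacer, and the right half-site is read on the opposite strand. The sites with 1 mismatch were these.
Ctnnb1, chr9:120828026-120828060, C5A: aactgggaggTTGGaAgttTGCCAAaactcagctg
2810055G20Rik, chr16:77501444-77501478, A6C: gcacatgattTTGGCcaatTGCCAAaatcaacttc
Wdfy1, chr1:79694087-79694121, T2A: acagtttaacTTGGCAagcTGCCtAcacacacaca
Ankrd44, chr1:54704288-54704322, T2G: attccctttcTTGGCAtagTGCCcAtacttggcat
Celf2, chr2:7168078-7168112, A6C: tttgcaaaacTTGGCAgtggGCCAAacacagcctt
Fam50b, chr13:34800999-34801033, T1A: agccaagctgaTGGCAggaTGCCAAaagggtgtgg
Those with 2 mismatches were the following.
1110007C09Rik, chr13:49301185-49301219, A6T and T2G: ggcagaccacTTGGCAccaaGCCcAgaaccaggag
Angptl4, chr17:33916394-33916428, T1C and T2A: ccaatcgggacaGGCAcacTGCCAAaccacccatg
Tmem72, chr6:116779516-116779550, T1C and A6C: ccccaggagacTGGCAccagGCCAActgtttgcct
A830073O21Rik, chr7:80812413-80812447, A6C and C5T: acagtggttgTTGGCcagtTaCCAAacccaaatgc
Bckdhb, chr9:83856262-83856296, T1G and T1G: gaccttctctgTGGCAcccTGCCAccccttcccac
Tle1, chr4:72051406-72051440, A6T and C5T: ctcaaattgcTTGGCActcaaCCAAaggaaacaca

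The 24 sites without mismatch had 2 to 10 wild-type tags in the 300 bp centred on the match, with a median of 4. Knock-out tags numbered 0 to 7 with a median of 2.5, and input tags 0 to 5 with a median of 0. The ranges of the 3 libraries thus overlapped. More knock-out than input tags were found at 15 of the 24 sites, or 62.5% (40.6 to 81.2). The share was 46.05% of all 1240 sites and, counted on the interval, 27.2% of all deposited sites. More knock-out than wild-type tags were found at 6 of the 24, or 25% (9.77 to 46.7), against 9.19% and 3.23% in the same order. These comparisons used tag counts not scaled by library size.

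Among these sites, that nearest to Kcnip4, a gene for a potassium channel-interacting protein, held 7 knock-out, 4 wild-type and 0 input tags. It lay 4853 bp upstream of a transcription start site (TSS) of that gene. A site in an intron of Nfia, itself a member of the NFI family, held 2 tags from wild-type, 6 from knock-out and 0 from input DNA, and lay 1182 bp upstream of another TSS of the same gene. The Crybg3 intron site had 6, 6 and 1 tags in that order. The Kcnip4 and Nfia sites were thus among the 6 of the 24 with more knock-out than wild-type tags. Both had been named for their knock-out tags.

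The Limd1 intron site, which encodes a LIM domain adaptor protein, held 5 tags from wild-type, 4 from knock-out and 1 from input DNA. Wild-type tags were most numerous in an intron of Mcc, with 10 tags from wild-type, 3 from knock-out and 0 from input DNA. No knock-out tag was found at 3 of the 24 sites, or 12.5% (2.66 to 32.4), against 35.9% of all 1240. Over all deposited sites, counted on the interval, it was 58.4%. The 3 sites included a coding exon of Dag1, the gene for dystroglycan, with 6 wild-type tags. These 3 sites had 3 to 6 wild-type tags and no input tag.

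Of the sites with 1 mismatch, that with the most knock-out tags lay 10354 bp from Ctnnb1, the gene for beta-catenin, and held 7 tags from wild-type, 10 from knock-out and 1 from input DNA. A site in an intron of 2810055G20Rik, with 4, 10 and 1 tags, lay inside the transcribed region that the deposited files list for mir-125b-2, mir-99a and let-7c-1. The site nearest to Wdfy1 had 14, 9 and 2 tags. A site in an untranslated exon part of Ankrd44, which encodes an ankyrin repeat protein, had 6, 9 and 0 tags. That nearest to Celf2, a gene for an RNA-binding protein, had 5, 9 and 0 at a distance of 165617 bp. Knock-out tags were as many as or more than the wild-type tags at these sites except those of Wdfy1 and Fam50b. The sites had been selected for their knock-out tags, which favours this outcome. Of all 190 sites with 1 mismatch, 19, or 10.0% (6.13 to 15.2), had more knock-out than wild-type tags on the match.

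Among the sites with 2 mismatches, an intron of 1110007C09Rik held 12 tags from wild-type, 11 from knock-out and 1 from input DNA. A site within Angptl4, whose product inhibits lipoprotein lipase, had 5, 11 and 1 tags and lay 365 bp upstream of a TSS of this gene. The Bckdhb intron site, which encodes a subunit of the branched-chain keto acid dehydrogenase, had 4, 10 and 0 tags. That nearest to Tle1, a gene for a co-repressor of the Groucho family, had 7, 9 and 0 tags at a distance of 189442 bp. These sites were selected for their knock-out tags, and their counts are a description.

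Over all 1240 sites, wild-type tags averaged 3.63 per 300 bp on the match, 9.23 times the genome average (8.97 to 9.51). Means were 1.58 tags in the knock-out ChIP, 4.30 times the average (4.12 to 4.50), and 0.836 in the input, 1.74 times (1.64 to 1.85). Scaled by size, knock-out over input was 2.47 (2.29 to 2.67), and the knock-out amounted to 0.466 of the wild-type ChIP (0.442 to 0.492). Single counts, as made here, were low, with a median of 3 wild-type and 1 knock-out tags. On the match, 445 of the sites, or 35.9% (33.2 to 38.6), had no knock-out tag. Wild-type tags numbered 5 or more at 289 of the sites, or 23.3% (21.0 to 25.8). On the match and on the interval, many sites thus lay below the tag threshold used to call the list. The reason for this gap was not tested. The 16 sites with 5 or more input tags, which together held 105 tags from wild-type, 59 from knock-out and 131 from input DNA, lowered the ratio of knock-out to input. It was 2.75 (2.54 to 2.98) without them.

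Knock-out tags followed the closeness of the match. Sites without mismatch had a mean of 2.50 knock-out tags, or 6.81 times the genome average (5.19 to 8.76). The mean was 1.81 tags with 1 mismatch, or 4.93 times (4.42 to 5.48), and 1.52 tags with 2 mismatches, or 4.13 times (3.93 to 4.34). The intervals of 0 and 1 mismatch overlapped, while those of 1 and 2 mismatches did not. Divided by the input, the knock-out ChIP reached 4.36 (2.54 to 7.85) without mismatch, 3.31 (2.71 to 4.07) with 1 and 2.31 (2.12 to 2.51) with 2. Input tags showed no such order, at 1.56 (0.924 to 2.47), 1.49 (1.25 to 1.76) and 1.79 (1.67 to 1.91) times the genome average.

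The wild-type ChIP differed less between the 3 classes. It stood at 10.5 times the genome average (8.53 to 12.8) without mismatch, 10.4 times (9.67 to 11.1) with 1 mismatch and 8.99 times (8.70 to 9.29) with 2 mismatches. The knock-out ChIP was 0.648 of the wild-type ChIP (0.462 to 0.902) at sites without mismatch, 0.475 (0.417 to 0.540) with 1 and 0.459 (0.432 to 0.487) with 2. The choice of sites by wild-type tags lowers this ratio in all 3 classes. With 1 library of each kind, the part of that choice, a change in occupancy and a difference in the yield of the precipitation cannot be told apart.

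**Figure D1:**
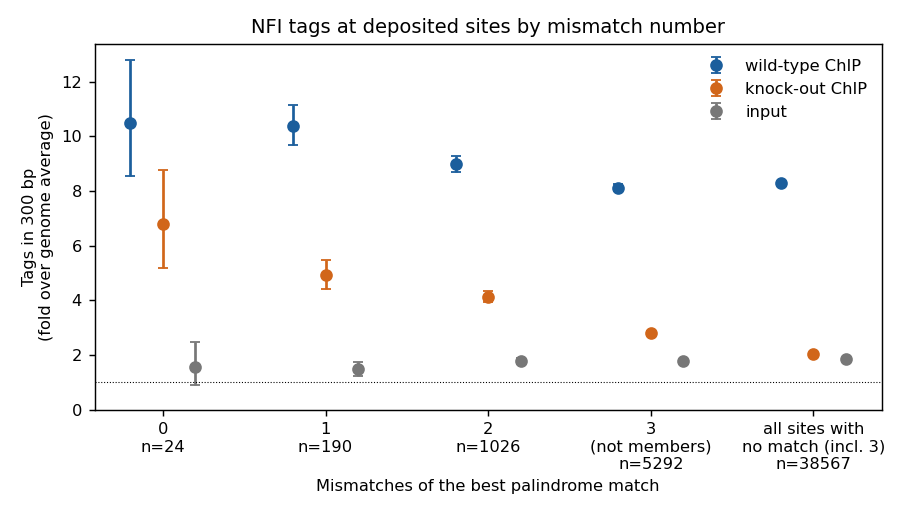
Mean tags in 300 bp, as fold over the genome average (vertical axis), by the number of mismatches of the best match at a deposited site (horizontal axis). Points are the 3 libraries and bars 95% Poisson intervals. The dotted line is the genome average. Sites with 3 mismatches and all 38567 sites without a match of at most 2 mismatches are shown beside the 24, 190 and 1026 sites described here. The window was centred on the match, but on the interval for the 38567 sites. The knock-out ChIP falls from 6.81 to 2.03 across the classes while the input stays between 1.49 and 1.88.

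The deposited sites without a match gave the comparison within the list. In the 300 bp centred on the interval, sites with a match had 1.53 knock-out tags on average against 0.745 at the 38567 without one, 2.06 times as many (1.96 to 2.16). The input went slightly the other way, with 0.828 tags at sites with a match and 0.902 at the others, a ratio of 0.919 (0.862 to 0.977). Knock-out over input was 2.42 (2.25 to 2.62) where a match was present and 1.08 (1.07 to 1.10) where none was. Wild-type tags, which chose the sites, differed by 1.16 (1.13 to 1.20). At least 3 knock-out tags were found at 270 of the 1240 sites, or 21.8% (19.5 to 24.2), against a background of 7.01% over all deposited sites. No knock-out tag was found at 38.2% (35.5 to 41.0), against 58.4% over all deposited sites.

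When every uniquely mapped read was counted, the ratio of 2.06 fell to 1.20 (1.17 to 1.23). With every read counted, but without the sites of 5 or more input tags, it was 2.22 (2.16 to 2.28). The fall thus went with the few sites rich in input, of which 16 had a match and 791 had none. Counted again as distinct tags, the mean at these was 3.12 knock-out tags per site with a match and 4.10 per other site. Among sites with 0, 1 and 2 to 4 input tags, those with a match had 2.22 times (2.07 to 2.38), 2.21 times (2.04 to 2.40) and 2.20 times (1.98 to 2.44) the knock-out tags of the others.

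The excess of knock-out tags was seen in most classes of sites with like wild-type counts. At 0 or 1 wild-type tags, 18 sites with a match had 1.72 times the knock-out tags of the others (0.995 to 2.77). At 2 wild-type tags, with 193 such sites, it was 1.54 times (1.32 to 1.78). At 3 wild-type tags the 401 sites with a match had 1.23 knock-out tags on average and the 14889 others 0.628. At 4 wild-type tags the means were 1.48 and 0.700, and at 5 they were 1.79 and 0.875, a ratio of 2.05 (1.81 to 2.31). From 6 wild-type tags on, where the others held a mean of 5.13 input tags, the ratio was 0.939 (0.845 to 1.04). It was 1.70 (1.52 to 1.90) at sites of under 40% G and C in 300 bp, 2.10 (1.96 to 2.24) from 40 to 50% and 1.85 (1.70 to 2.01) above.

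Both limits of the rule were gradual. The 168 sites whose best match lay 125 to 150 bp from the interval centre had 1.44 knock-out tags on average on the match, and the 191 sites just outside, at 150 to 175 bp, had 1.48. The 5292 sites whose best match had 3 mismatches had 1.04 knock-out tags, 1.59 times the input (1.53 to 1.66). These sites lie outside the rule, and their ratio was between those of sites with and without a match.

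Most matches in the genome were not at a deposited site. A deposited site lay within 150 bp of 24 of the 159 matches without mismatch, or 15.1% (9.92 to 21.6). The share was 3.28% (2.84 to 3.77) of 5822 matches with 1 mismatch and 1.05% (0.987 to 1.11) of 99810 with 2. Windows of the same width held a match at 1.39% (1.28 to 1.51) of the positions 2 kb to the left of the deposited sites and at 1.26% (1.15 to 1.37) of those 2 kb to the right. Of these windows, 4 on the left and 0 on the right held a match without mismatch, against 24 at the sites themselves. With 1 mismatch there were 40 and 27 windows against 190 sites. With 2 mismatches, the largest class, there were 509 and 474 windows against 1026 sites.

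Matches over 1 kb from any deposited site also carried ChIP tags. The 125 such matches without mismatch had 3.50 times the genome average in the wild-type ChIP (3.00 to 4.07), 2.40 times (1.97 to 2.89) in that of the knock-out and 0.948 times for input (0.718 to 1.23). The knock-out over input ratio was 2.53 there (1.82 to 3.54), against 4.36 at the 24 sites, and the 2 intervals overlapped. With 1 mismatch it was 1.55 (1.47 to 1.63) and with 2 mismatches 1.23 (1.21 to 1.24), both below the deposited sites of the same class. Since the deposited sites were picked for wild-type tags, their levels in that library cannot be set against those of other matches.

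The position of the match within a site was spread widely. The median distance between match and interval centre was 68.5 bp, with the middle 50% of sites between 34.5 and 106 bp, and 451 of the matches, or 36.4% (33.7 to 39.1), lay within 50 bp. Only 66 matches had their centre inside the 16 bp interval. Sites without mismatch had a median distance of 89.0 bp, those with 1 mismatch 65.0 bp and those with 2 mismatches 68.5 bp. No match without mismatch had its centre inside its interval, and the nearest was 22.5 bp away.

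Around all deposited sites, the density of matches with 1 mismatch was 6.62 times that of the genome (4.47 to 9.46) within 25 bp of the centre and 8.83 times (6.31 to 12) at 25 to 50 bp. It was still 5.30 times (3.4 to 7.88) at 125 to 150 bp and 4.31 times (3.06 to 5.89) at 150 to 200 bp. Matches with 2 mismatches went from 2.61 times (2.27 to 3.00) within 25 bp to 1.82 times (1.53 to 2.14) at 125 to 150 bp and 1.05 times (0.936 to 1.17) at 400 to 500 bp. For matches without mismatch the density was 40.4 times (13.1 to 94.3) at 125 to 150 bp, from 5 matches. The decline was slow, and matches were denser than in the genome well beyond the limit of 150 bp.

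**Figure D2:**
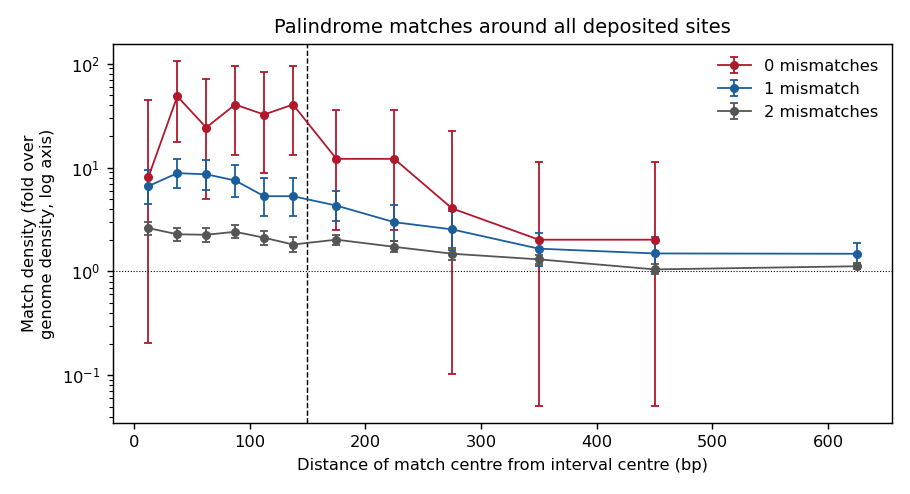
Density of palindrome matches around all 39807 deposited sites, as fold over the density in the genome (log axis), against the distance between match and interval centre in bp. Points stand for bins and bars for 95% Poisson intervals, bins without a match are left out, the dashed line is the limit of 150 bp and the dotted line the genome density. Matches with 1 mismatch fall from 6.62 to 8.83 near the centre to 1.66 at 300 to 400 bp.

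ChIP tags were fewest at the largest distances. On the match, wild-type tags stood at 10.1 times the genome average (9.45 to 10.8) up to 25 bp and at 8.27 times (7.80 to 8.76) at 100 to 150 bp. For knock-out tags, the mean was 1.67 knock-out tags at distances up to 25 bp, 1.60 at 25 to 50 bp, 1.71 at 50 to 100 bp and 1.36 at 100 to 150 bp. Divided by the input these gave 2.67 (2.24 to 3.19), 2.91 (2.40 to 3.53), 2.48 (2.19 to 2.81) and 2.12 (1.83 to 2.45). The intervals of these ratios overlapped between neighbouring classes. Before division by the input, the knock-out tags stood at 4.64 times the genome average (4.32 to 4.99) at 50 to 100 bp and 3.69 times (3.37 to 4.04) at 100 to 150 bp, without overlap. With the window on the interval in place of the match, the class at 100 to 150 bp had 1.23 knock-out tags and a ratio of 1.83 (1.58 to 2.13), so the counts there were higher on the match than on the interval. Wild-type tags went the other way in this class, from 3.6 on the interval, on which the site had been called, to 3.25 on the match.

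The strands of the tags were then compared around the match. In ChIP-Seq, tags on the plus strand start to the left of a bound element and those on the minus strand to its right, so that the 2 strands point inward. Within 150 bp of the match centre, 3115 of 4493 wild-type tags pointed inward, or 69.3% (68.0 to 70.7). In the knock-out ChIP it was 1317 of 1958, or 67.3% (65.1 to 69.3), and in the input 555 of 1040, or 53.4% (50.3 to 56.4). The share was therefore above 50% in both ChIP libraries, and the interval of the input began just above it.

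At sites without mismatch the inward share was 78.8% (69.4 to 86.4) of 99 wild-type tags and 80% (67.7 to 89.2) of 60 knock-out tags, against 44.4% (21.5 to 69.2) of 18 input tags. With 1 mismatch it was 74.7% (71.5 to 77.7) and 66.3% (61.0 to 71.3) in the ChIP libraries and 56.6% (47.9 to 65.1) in the input, whose interval overlapped that of the knock-out. With 2 mismatches it was 67.9% (66.4 to 69.4), 67.0% (64.6 to 69.3) and 53.0% (49.7 to 56.4). The knock-out share was alike at all distances from the interval centre, at 65.7% (60.8 to 70.4) up to 25 bp and 66.3% (61.9 to 70.5) at 100 to 150 bp. The wild-type share fell from 75.9% (73.0 to 78.6) to 60.4% (57.5 to 63.3) over the same classes. The input share was 60.9% (53.7 to 67.9) up to 25 bp, overlapping that of the knock-out, and 46.2% (40.4 to 52.0) at 100 to 150 bp.

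The interval centre placed knock-out tags less well. Around it, 61.6% (59.3 to 63.8) of the knock-out tags at sites with a match pointed inward, below the 67.3% around the match. Where no match was present, 52.2% (51.7 to 52.8) of knock-out tags pointed inward, and 65.7% (65.4 to 65.9) of wild-type tags, which had set the centre. Outward wild-type tags were uneven around the interval centre at sites with a match. There were 1041 on the plus strand to its right and 443 on the minus strand to its left, against 244 and 256 in the input. At sites without a match the wild-type numbers were 28429 and 14626. At matches over 1 kb from any deposited site the inward share was 54.7% (54.3 to 55.2) for wild-type tags, 54.9% (54.4 to 55.3) for knock-out tags and 49.9% (49.5 to 50.4) for input tags.

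In bins of 50 bp, wild-type tags on the plus strand were highest at 100 to 50 bp left of the match, with 13.7 times the genome average (12.6 to 14.9). Those on the minus strand were highest at 100 to 150 bp to its right, with 13.1 times (12 to 14.2). Knock-out tags reached 6.25 times (5.48 to 7.09) and 5.88 times (5.13 to 6.70) at 50 to 100 bp on the corresponding sides. Between 500 and 2000 bp from the match, all 3 libraries lay at 1.34 times (1.31 to 1.37), 1.38 times (1.35 to 1.42) and 1.44 times (1.41 to 1.47) the genome average. Relative to these flanks the centre was 6.88-fold higher (6.63 to 7.15) for wild-type tags, 3.11-fold (2.96 to 3.28) for knock-out tags and 1.21-fold (1.13 to 1.29) for input tags. Only 34 of 1955 knock-out tags near the matches, or 1.74% (1.21 to 2.42), had the position and strand of a wild-type tag, against 12 of 1031 input tags, or 1.16% (0.603 to 2.02).

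**Figure D3:**
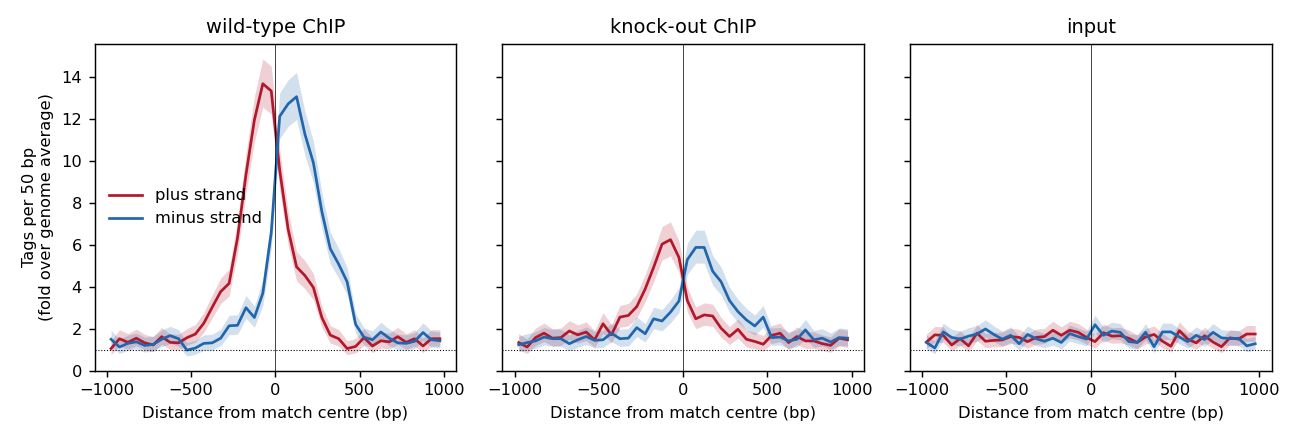
Tags on the plus and minus strand in bins of 50 bp around the match centre at the 1240 sites, as fold over the genome average of a strand (vertical axis), against the distance from the match centre in bp. Shading gives 95% Poisson intervals, and each panel is 1 library. The plus strand peaks left and the minus strand right of the match in both ChIP libraries, near 13 times in the wild-type ChIP and 6 times in the knock-out ChIP, and the input does not exceed 2.19 times on either strand.

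Mismatches at the sites fell unevenly on the palindrome. The following values take all matches at deposited sites and not the best one alone, which gives 191 matches with 1 mismatch and 1047 with 2. Of the 191 single mismatches, 62 were at position 1, or 32.5% (25.9 to 39.6), against 16.6% of such matches in the genome. Position 6 held 49, or 25.7% (19.6 to 32.5), against 11.9%. The G bases at positions 3 and 4 were replaced in 9 and 15 matches, or 4.71% (2.18 to 8.76) and 7.85% (4.46 to 12.6), against 14.8% and 24.1% in the genome. Positions 2 and 5 lay close to their genome shares, at 14.7% (9.97 to 20.5) against 14.1%, and at 14.7% (9.97 to 20.5) against 18.5%.

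Put the other way round, a genome match with its single mismatch at position 6 lay at a deposited site in 7.05% of cases (5.26 to 9.21), and one at position 1 in 6.41% (4.95 to 8.14). At positions 3 and 4 it was 1.04% (0.477 to 1.97) and 1.07% (0.600 to 1.76), and at positions 2 and 5 3.42% (2.28 to 4.90) and 2.60% (1.74 to 3.74). By the base that replaced it, T1C matches lay at a deposited site in 10.6% of cases (7.65 to 14.1, 40 of 379), while T1A matches did so in 2.19% (0.884 to 4.45, 7 of 320). A6G gave 12.1% from 4 of 33 matches (3.4 to 28.2), and A6C and A6T gave 7.55% (4.38 to 12) and 6.44% (4.36 to 9.12). T2G stood at 5.12% (3.20 to 7.72), while T2C and G3C were each found at 0 of 40, which allows up to 8.81%. C5A gave 4.0% (2.35 to 6.33) and C5T 0.709% (0.0860 to 2.54). The list had been filtered for repeats by the authors, and the part of that filter in these shares was not tested.

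The knock-out tags at matches that the list left out gave a reading of the same positions. At matches over 1 kb from any deposited site, knock-out over input was 2.25 (1.95 to 2.59) where position 6 was replaced and 1.74 (1.55 to 1.96) where position 1 was. The ratio was 1.05 (0.909 to 1.22) for position 3 and 1.22 (1.08 to 1.36) for position 4. Positions 2 and 5 gave 1.73 (1.51 to 1.97) and 1.64 (1.45 to 1.85). The wild-type ChIP gave 2.44 (2.12 to 2.80) and 1.78 (1.59 to 2.00) for positions 6 and 1, and 0.955 (0.823 to 1.11) and 1.17 (1.05 to 1.31) for positions 3 and 4. The input itself ranged from 0.976 to 1.23 times the genome average over the 6 positions.

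**Figure D4:**
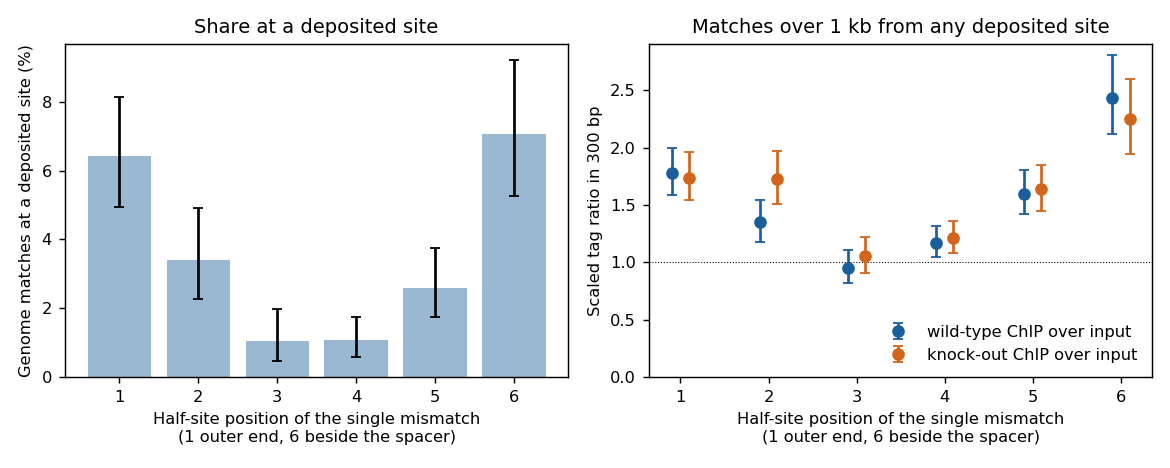
Left, share of genome matches with 1 mismatch that lay at a deposited site (%), by the position of that mismatch in the half-site. Right, ratio of ChIP to input tags in 300 bp, scaled by library size, at matches over 1 kb from any deposited site, by the same position. Bars and points carry exact 95% intervals and the dotted line marks a ratio of 1. Positions 3 and 4 are lowest in both panels, at 1.04% and 1.07% on the left, and positions 1 and 6 are highest on the left, at 6.41% and 7.05%.

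Among matches with 2 mismatches, pairs at positions 1 and 6 again had the highest shares at deposited sites. When both mismatches fell on positions 1 and 6 of the same half-site, 3.83% (3.10 to 4.69, 91 of 2374) lay at a deposited site. The lowest share was that of position 4 in both half-sites, 0.248% (0.132 to 0.423, 13 of 5246). Position 3 in both half-sites gave 0.652% (0.282 to 1.28). Among the 1026 sites with 2 mismatches, the 251 with both at positions 1 or 6 had 2.10 knock-out tags on average, 2.66 times the input (2.29 to 3.10). The 375 with at least 1 mismatch at position 3 or 4 had 0.813 knock-out tags, 1.52 times the input (1.29 to 1.80), and the intervals of the 2 ratios did not overlap. The other 400 sites had 1.81 knock-out tags and a ratio of 2.62 (2.31 to 2.98). Mean wild-type tags were 3.99, 2.99 and 3.75 in these classes.

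Sites with an intact half-site were then set against those with a mismatch in each. Of the 1026 sites with 2 mismatches, 502, or 48.9% (45.8 to 52.0), had both in the same half-site, against 43.9% of such matches in the genome. These sites had 1.5 knock-out tags on average, and the 524 sites with a mismatch in each half-site had 1.54. The ratios to the input were 2.29 (2.03 to 2.58) and 2.33 (2.07 to 2.62). The intervals of these ratios overlapped. In the genome, 1.17% (1.07 to 1.27) of the matches with both mismatches in the same half-site lay at a deposited site, and 0.956% (0.877 to 1.04) of those with a mismatch in each, and these intervals did not overlap. The 2 classes also differ in the positions replaced. Position 4 in both half-sites, with the lowest share of 0.248%, can occur only with a mismatch in each. The part of the positions in this difference was not tested.

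The length of the spacer was checked by moving the half-sites apart. With 3 free positions, 215 of 5981 matches with at most 1 mismatch lay at a deposited site, or 3.59% (3.14 to 4.10). With 1, 2, 4, 5, 6, 7 or 8 free positions the share was between 0.554% and 0.766%, and 0 to 3 matches without mismatch lay at a site, against 24 with 3 positions. The spacer bases themselves were near even at deposited sites. Next to a half-site they were 25.6% A, 22.7% C, 27% G and 24.6% T, read on the strand of that half-site, against 30.4%, 19.5%, 23.5% and 26.6% at all matches in the genome.

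The sites were then placed in the chromatin regions of the deposited boundary files, which list regions enriched in a histone mark and regions bound to the nuclear lamina. H3K4me3 is known from promoters of active genes, H3K36me3 from transcribed gene bodies and H3K27me3 from genes silenced by Polycomb proteins. The lamina regions had been mapped in human Tig3 lung fibroblasts and were carried over to the mouse genome by the authors. The listed regions are broad, with median lengths of 16547 bp for H3K4me3, 46327 bp for H3K36me3, 38813 bp for H3K27me3 and 484777 bp for lamina. They cover 18.8%, 19.4%, 40.3% and 40.1% of the genome. The files give each region together with its closest NFI site, and for the 3 histone marks the regions listed as rich and poor followed each other with 0 gaps and 0 overlaps.

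H3K4me3 regions held 608 of the 1240 sites, or 49.0% (46.2 to 51.9), against 42.6% of all deposited sites. The share was 38.4% (35.7 to 41.2) against 35.4% in H3K36me3 regions and 58.2% (55.4 to 61.0) against 54.4% in H3K27me3 regions. Lamina regions held fewer of them, 28.8% (26.3 to 31.4) against 32.4%. Each of these intervals excluded the background. Among the 214 sites with at most 1 mismatch, the background lay inside the interval for every region type, with 49.1% (42.2 to 56.0) in H3K4me3, 35.0% (28.7 to 41.8) in H3K36me3, 57.9% (51 to 64.6) in H3K27me3 and 31.3% (25.2 to 38) in lamina regions. For matches within 50 bp it did so for H3K36me3, at 35.3% (30.8 to 39.9). Both H3K4me3 and H3K27me3 regions covered 31.9% (29.3 to 34.5) of the sites and 28.3% of all deposited sites, and neither covered 24.6% (22.2 to 27.1), against 31.4%.

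The share in H3K4me3 regions was 66.7% (44.7 to 84.4) without mismatch, from 16 of 24 sites, 46.8% (39.6 to 54.2) with 1 mismatch and 49.0% (45.9 to 52.1) with 2. In lamina regions it was also 66.7% (44.7 to 84.4) without mismatch, against 26.8% (20.7 to 33.7) with 1 and 28.3% (25.5 to 31.1) with 2. The 24 sites without mismatch thus lay in lamina regions more often than the other classes, with intervals that did not overlap.

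Tags of all libraries were more frequent inside H3K4me3 regions. Sites with a match had 2.03 knock-out and 1.03 input tags on average inside and 1.15 and 0.646 outside. The ratio of knock-out to input was 2.56 (2.33 to 2.83) inside and 2.34 (2.07 to 2.64) outside, with overlapping intervals. At sites without a match, counted on the interval and not on a match, it was 1.00 (0.985 to 1.02) inside and 1.22 (1.19 to 1.26) outside. For H3K27me3 the ratio at sites with a match was 2.60 (2.37 to 2.87) inside and 2.26 (1.99 to 2.57) outside, and for lamina 2.36 (2.02 to 2.76) and 2.51 (2.30 to 2.74). H3K36me3 regions were the exception, with 2.12 (1.89 to 2.37) inside and 2.81 (2.53 to 3.12) outside, and the sites without a match differed in the same direction, at 0.916 (0.895 to 0.937) and 1.26 (1.23 to 1.29).

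**Figure D5:**
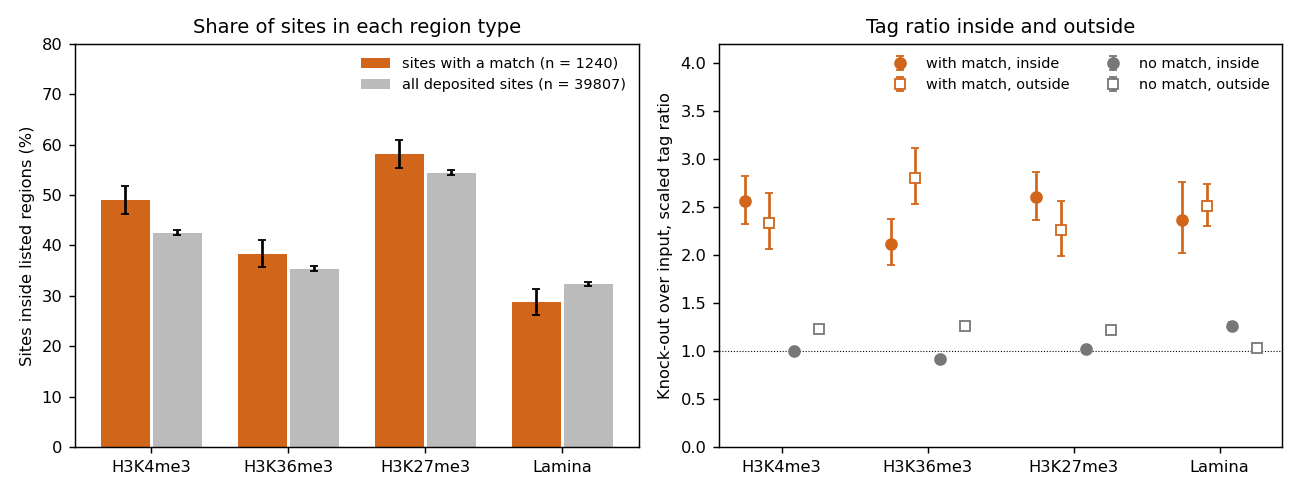
Left, share of deposited sites (%) inside the listed regions of each type, for the 1240 sites with a match and all 39807 sites. Right, ratio of knock-out to input tags in 300 bp, scaled by library size, for sites inside (filled circles) and outside (open squares) these regions, with and without a match. The window was centred on the match at sites with one and on the interval at the others. Bars carry exact 95% intervals and the dotted line marks a ratio of 1. The ratio lies between 2.12 and 2.81 at sites with a match and between 0.916 and 1.26 at the others, in and out of every region type.

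The sites were also placed with respect to genes, taking every annotated TSS of a protein-coding gene. Of the 1240, 149 were located less than 5 kb upstream of the TSS of some protein-coding gene, which is 12% (10.3 to 14.0), against 11.4% of all deposited sites. Within 1 kb upstream it was 5.00% (3.85 to 6.36) against 5.03%. A gene body held 50.6% (47.7 to 53.4) against 51%, an exon 5.89% (4.64 to 7.35) against 6.11% and an intron 44.7% (41.9 to 47.5) against 44.9%. Sites over 100 kb from the nearest gene made up 18.9% (16.7 to 21.2) against 20.7%, and 10.2% (8.54 to 12) had another deposited site within 2 kb, against 9.03%. The background lay inside the interval in each of these 7 comparisons. When a gene was given only its outermost TSS, 6.77% (5.44 to 8.32) lay within 5 kb upstream, and the background was not computed for that definition.

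Near a TSS the excess of knock-out over input tags was smaller. The 62 sites within 1 kb upstream had 2.23 knock-out and 1.81 input tags on average, a ratio of 1.61 (1.25 to 2.09), and elsewhere, at 1178 sites, it was 2.58 (2.38 to 2.79). The 73 sites in exons had a ratio of 1.61 (1.23 to 2.12), against 2.57 (2.37 to 2.78) elsewhere. Both were places of high input, and the part of the input in these ratios was not tested.

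Among the sites within 5 kb upstream of a TSS, and with fewer than 5 input tags, that of Angptl4 had the most knock-out tags, followed by 2 sites with 8. One lay 647 bp upstream of Cir1, which encodes a co-repressor, and within an intron of Scrn3, with 6 tags from wild-type, 8 from knock-out and 0 from input DNA and the substitutions A6T and T1C. The other lay 589 bp upstream of a TSS of Ppm1h, a protein phosphatase gene, with 4, 8 and 0 tags and C5G and A6G. A site 1651 bp upstream of Gdf15, which encodes a secreted protein of the TGF-beta superfamily, had 6, 7 and 1 tags and the single substitution T1G. A site 2434 bp upstream of Mrpl1, a gene for a mitochondrial ribosomal protein, had 5, 7 and 1 tags and T1C in both half-sites. The Kcnip4 site described above was the sixth of this group, with the intact palindrome.

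Sites without a knock-out tag are shown by the 4 with the most wild-type counts, equal counts taken in chromosome order, and all had 2 mismatches. Those nearest to Ubxn10 and Gm6404 had 7 wild-type and 1 input tags each, that nearest to Tmem182 had 6 and 1, and that nearest to Tgfbr3 had 6 and 4. They lay 9174, 317230, 573001 and 13211 bp from these genes. Their substitutions were C5G and T1G, C5A and T1C, A6C and G3T, and T2A and T1C in the same order. Among sites with fewer than 5 input tags, the highest wild-type count without any knock-out tag was 7. The highest count of all 1240 sites was 26 wild-type tags, at a site in an exon. Input tags reached 17 in exons, and sites outside exons had at most 14 wild-type tags.

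The nearest protein-coding genes numbered 1092, of which 972 were nearest to 1 of the sites, 97 to 2 and 23 to 3 or more. Lama4, which encodes a laminin chain of basement membranes, had the most, with 5 of the 1240 sites and 25 deposited sites in all. All 5 lay outside the gene, at 57194 to 861565 bp from it. That at 260979 bp held 4 tags from wild-type, 7 from knock-out and 0 from input DNA and that at 57194 bp had 4, 4 and 1, while each of the other 3 had 3 wild-type and 1 knock-out tags.

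Collagen genes were nearest to 11 of the 1240 sites, or 0.887% (0.444 to 1.58), against 0.497% of all deposited sites, and 7 of 43 collagen genes had such a site. One lay in an untranslated exon part of Col1a2, a chain of type I collagen, with 3 tags from wild-type, 2 from knock-out and 1 from input DNA. The Col16a1 intron site had 4, 3 and 0 tags. That nearest to Col13a1 had 4, 2 and 2, and a site in an intron of Col25a1 had 5, 3 and 2. Of the 3 sites nearest to Col11a1, that at 170959 bp had 3, 6 and 0 tags. That at 100703 bp had 4, 0 and 0, and that in an intron had 4, 1 and 0. Over all 11 sites there were 36 tags from wild-type, 24 from knock-out and 16 from input DNA.

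Integrin and laminin genes were nearest to 10 sites, or 0.806% (0.387 to 1.48), against 0.377% of all deposited sites. A site in an intron of Itga11, which encodes a collagen-binding integrin subunit, held 5 tags from wild-type, 8 from knock-out and 0 from input DNA, the most knock-out tags of the sites on these lists, and held T2G in both half-sites. The 5 sites of the genes for matrix glycoproteins, 0.403% (0.131 to 0.938) against 0.414%, included an intron of Loxl2, a lysyl oxidase gene, with 5, 3 and 3 tags. The site nearest to Efemp1, a fibulin gene, had 3, 4 and 1 tags, and of the 2 sites assigned to Thbs2, which encodes a thrombospondin, that at 58876 bp had 3, 2 and 1 and that in an intron 2, 0 and 1.

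Genes of TGF-beta and BMP signalling were nearest to 8 sites, or 0.645% (0.279 to 1.27), against 0.502%. These 8 sites held 28 wild-type tags but 3 knock-out and 12 input tags. A site in an intron of Acvr2b, an activin receptor gene, matched without mismatch and held 5 tags from wild-type, 1 from knock-out and 1 from input DNA. That nearest to Inhba, which encodes an activin subunit, had 4, 0 and 4 and lay 195732 bp from the gene. Within Smad3, a signal transducer of TGF-beta, the counts were 3, 0 and 0. PDGF genes had 1 site, 0.0806% (0.00204 to 0.448) against 0.0929%. It lay in an intron of the receptor gene Pdgfrb, with 3, 4 and 1 tags.

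Of the NFI genes, Nfia, Nfib and Nfic were each nearest to 1 site, 0.242% (0.0499 to 0.705) against 0.136% of all deposited sites. The intron site of Nfib, with the substitution A6T, held 4 tags from wild-type, 1 from knock-out and 0 from input DNA. That of Nfic, the gene disrupted in the knock-out cells, had 3, 1 and 5 tags, with more input than ChIP tags. Mesenchymal transcription factor genes were nearest to 4 sites, 0.323% (0.0880 to 0.824) against 0.399%. The Runx2 intron site, a regulator of bone formation, had 4, 0 and 0 tags, and of the 3 sites nearest to Zeb2, that at 463992 bp had 3, 6 and 1, that at 1348167 bp 5, 1 and 2 and that at 250627 bp 3, 1 and 2. The background of every list lay inside the interval of its share except for integrins and laminins, where it lay just below it and where 5 of the 10 sites were those far outside Lama4.

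Other short motifs were counted on both strands in the 300 bp around the interval. The AP-1 motif TGANTCA occurred at 15.8% (13.8 to 18.0) of the 1240 sites, against 12.4% of all deposited sites and 10.3% (8.68 to 12.2) of windows 2 kb from the 1240 sites. CCAAT was found at 42.7% (39.9 to 45.5) against 36.4% and 38.1% (35.4 to 40.8), and the E-box CAGCTG at 16.6% (14.6 to 18.8) against 13.5% and 12.7% (10.9 to 14.6). The TEAD motif GGAATG was found at 20.5% (18.3 to 22.8) against 17.3% and 17.6% (15.5 to 19.8), and the GC box GGGCGG at 5.24% (4.07 to 6.63) against 4.78% and 3.87% (2.87 to 5.10). CCAAT reads ATTGG on the opposite strand, which covers positions 1 to 4 of a half-site and the base before it. The rule that chose the sites can thus itself raise the share of CCAAT. Base composition moved with these counts, since the sites held 44.5% G and C on average (SD 7.78) and all deposited sites 42.4% (SD 8.24), and its part in them was not tested.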

How the data were processed

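ChIP-Seq reads of 3 libraries (wild-type ChIP, knock-out ChIP, input) had been mapped to mm9 with ELAND by the authors, and the deposited read files hold raw alignments (code, position, strand) without normalization or score. The site list, the boundary files and the miRNA files hold coordinates and no other values. The sites were called on wild-type tags with ChIP-peak and filtered for repeats by the authors. Calling required a minimum number of tags per peak, which the wild-type tags counted here did not reach at many sites. The positions deposited for minus strand reads were the left end of the first 32 bases, as a comparison with the genome showed, and the 5′ end was set accordingly. Unique alignments to the autosomes and sex chromosomes were placed at this end, and repeats of a position on a strand were dropped. Genome averages used known bases only.

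Each site was given its best match, with the fewest mismatches, then the nearest, then the leftmost. Genes were those of GENCODE vM1 on the same build. Chromatin regions were the distinct rich regions of the deposited boundary files, which list each region with its closest NFI site. The palindrome is that printed by the study. Tags were counted in 300 bp.

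Named sites were the 12 without mismatch and the 6 each with 1 mismatch, with 2 mismatches and within 5 kb upstream of a TSS that had the most knock-out tags. The last 3 groups needed fewer than 5 input tags. To these were added 4 sites lacking knock-out tags, with fewer than 5 input tags and the highest wild-type counts, and up to 3 per gene list by wild-type tags. Where wild-type counts were equal, the collagen and Zeb2 sites taken for the lists were those with more knock-out tags. The exon sites of Dag1 and Col1a2, the Col11a1 sites, the Smad3 site, the Thbs2 intron site, the Zeb2 site at 250627 bp and the Lama4 sites beyond the first ones were named after their values were seen. Members and lists were chosen with earlier results of these data known. No paired analysis and no test was made, since each condition had 1 library. Counting scripts were tested on simulated tags. Software was SciPy 1.17.1, NumPy 2.4.6, pandas 2.3.3, matplotlib 3.10.9 and Python 3.11.15.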

Additional observations from a re-analysis of the deposited data

How the results depend on the processing

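Of 73 alternative values for 13 results, 41 stayed within the counting interval of the reported value or, for a count, within 1.5 times of it, and 32 moved. The knock-out over input ratio of 2.47 was 2.80 with tags shifted by 75 bp, 2.23 in 600 bp, 2.75 without sites of 5 or more input tags, 3.43 with at most 1 mismatch and 2.78 with matches within 50 bp. The wild-type over input ratio of 5.31 was 6.26, 4.50, 5.93, 6.95 and 6.22 under the same settings, and 6.14 in 100 bp. The knock-out over wild-type ratio of 0.466 was 0.417 in 100 bp, 0.497 in 600 bp, 0.434 on the interval and 0.494 with at most 1 mismatch. The inward share of knock-out tags was 64.8% within 75 bp. The number of sites was 214 with at most 1 mismatch, 451 within 50 bp and 2104 within 300 bp, as each rule admits fewer or more matches. With 5 free central positions it was 558. The genome held 104823 matches with 5 free positions and 105791 with 3, but 0.538% and 1.19% of them lay at a deposited site. The 558 sites were slightly more than the windows 2 kb to the left or right that held a match with 3 free positions. The share in H3K36me3 regions, 38.4% against a background of 35.4%, turned to just below it, with 35.0% for at most 1 mismatch and 35.3% for matches within 50 bp. With the latter, 61.4% lay in H3K27me3 regions and 26.2% in lamina regions. The share within 5 kb upstream was 6.77% with the outermost TSS, 14.4% with those of all genes and 5.00% within 1 kb. Of genome matches, 0.432% lay within 50 bp of a site and 3.59% of those with at most 1 mismatch within 150 bp. The ratio of knock-out tags between sites with and without a match, 2.06, was 1.20 with every read counted, 2.24 without sites of 5 or more input tags and 2.22 with both. These 3 settings and 1 more on that ratio were chosen after seeing the data. The causes were not tested where no construction of the setting shows them. Single sites hold few tags as counted here, which limits statements on any of them. No paired analysis was possible because each condition had 1 library.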

Other observations

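Of the 80 transcribed regions that the deposited files list for miRNAs with an NFI site, 10 held a site with a palindrome match. Such a match is held by 3.12% of all deposited sites, but some regions overlap and list the same sites, so no share was formed to set beside it. The host transcript of mir-99a, let-7c-1 and mir-125b-2, described above, had the most knock-out tags of them. The region of mir-582 held a site with 4 knock-out, 5 wild-type and 0 input tags, and that of mir-21 a site with 3, 4 and 2, both with 2 mismatches. The region of mir-28 held 2 such sites, with 1, 3 and 1 tags together, and that of mir-335, listed for 2 transcripts, held 1 site with 1, 4 and 0, all in this order.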
